A study of Mus musculus with 7 samples.

Results

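The genes described here are those whose symbols follow the naming pattern of cytosolic ribosomal proteins, Rpl or Rps followed by a number, together with the stalk proteins Rplp0 and Rplp2. The S6 kinases, which share the letters Rps6k, and symbols that name pseudogenes were left out. Only probe sets that carry a single gene symbol were used, and each gene was read on the 1 with the highest average level across the 7 arrays. This gave 49 genes of 18193 on the arrays, 26 with a large subunit symbol and 23 with a small subunit symbol. Of the 49, 42 are ribosomal proteins of the general ribosome. The other 7 are paralogs or like-named genes, among them Rps19bp1, which encodes a protein that binds Rps19 and is no part of the ribosome. RefSeq lists 88 protein-coding mouse genes that match the pattern. Of these, 48 are among the 49 genes, 31 were found on the arrays only on probe sets that also carry other symbols, and 9 were found in neither way.

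RNA came from whole hypothalamus of 3-month-old mice and was read on Affymetrix mouse430_2 arrays, 1 array for each sample. The 4 control arrays came from wild-type mice, for which the labels give no allele or transgene. The 3 knockout arrays came from Creb-PomcCre-/- mice. Cre recombinase driven by Pomc removes Creb there, so that the deletion is aimed at the Pomc neurons of the arcuate nucleus while RNA was taken from the whole tissue. The labels call the samples biological replicates, do not say whether a sample holds 1 or several mice, and give no sex. Xist and Y-linked transcripts placed wild-type arrays 1 and 4 and knockout array 1 as female and the other 4 as male. The labelled tissue was checked on 9 of 10 hypothalamic markers that were measured. Pmch read 13.66 to 13.97 and Hcrt 12.02 to 12.78 over the 7 arrays on the log2 scale, and Pomc itself 9.24 to 10.30. Creb1 read 9.40 to 9.57, with overlap between the groups.

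The cytosolic ribosome makes the proteins of the cell outside mitochondria. Its large subunit joins amino acids and lets the chain out through a tunnel, and its small subunit holds the mRNA and checks the codons. Nearly every ribosomal protein is present in a single copy in each ribosome. The mRNAs of these proteins are among the most abundant of any cell, and most start with a C followed by a run of pyrimidines at the 5′ end, which places their translation under the control of the kinase mTOR and of the RNA-binding protein Larp1. In the hypothalamus, phosphorylation of Rps6 is widely used as a mark of active neurons, and a tagged Rpl22 is used to pull ribosomes out of chosen cell types.

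Promoter sequences from RefSeq (GRCm38.p6, from position -250 to 50 around an annotated start) were at hand for 43 of the 49 genes. They are shown because Creb binds a cAMP response element, whose palindrome reads TGACGTCA, and because the pyrimidine run is what these genes are best known for. The first 3 stretches hold, in capitals, the full element in Rps9 and Rpl27a and the palindrome CTCGCGAG in Rps19. The last 4 hold, in capitals, pyrimidine runs of 11 to 18 bases at the annotated start of Rpl35, Rpl13a, Rps18 and Rps10. Capitals mark only the match each stretch is shown for. The Rpl27a stretch also holds, in lower case, CTCGCGAG at position -22 and a pyrimidine run of 20 bases from position -4, and the Rps9 stretch a run of 9 from position -6.

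Rps9 (chr7:3703961-3704060, plus strand): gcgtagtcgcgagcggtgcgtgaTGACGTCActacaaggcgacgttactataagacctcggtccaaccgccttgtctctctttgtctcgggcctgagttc
Rpl27a (chr7:109519075-109519214, plus strand): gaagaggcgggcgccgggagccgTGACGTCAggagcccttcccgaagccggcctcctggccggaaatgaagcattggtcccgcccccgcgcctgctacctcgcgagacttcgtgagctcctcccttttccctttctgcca
Rps19 (chr7:24884512-24884611, plus strand): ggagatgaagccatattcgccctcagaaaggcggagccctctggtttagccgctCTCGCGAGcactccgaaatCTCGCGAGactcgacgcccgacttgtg
Rpl35 (chr2:39005112-39005191, minus strand): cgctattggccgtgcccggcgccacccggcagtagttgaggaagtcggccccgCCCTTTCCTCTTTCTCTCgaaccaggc
Rpl13a (chr7:45128726-45128805, minus strand): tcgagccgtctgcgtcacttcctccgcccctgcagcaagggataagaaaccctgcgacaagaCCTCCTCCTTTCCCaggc
Rps18 (chr17:33955646-33955725, minus strand): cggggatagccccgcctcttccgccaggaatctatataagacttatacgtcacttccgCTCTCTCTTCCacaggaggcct
Rps10 (chr17:27635225-27635304, minus strand): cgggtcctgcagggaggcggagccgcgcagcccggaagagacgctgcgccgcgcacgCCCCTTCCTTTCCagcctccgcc

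The full element TGACGTCA lay in 2 of the 43 promoters (4.65%), those of Rps9 and Rpl27a, and in 2.92% of the 14452 promoters of genes on the arrays. It begins at position -57 from the start in Rps9 and at position -97 in Rpl27a. Its shorter form TGACG, which lies within the full element and was searched on both strands like the other motifs, was found in 20 of the 43 (46.5%) and in 30% of array genes. The letters CCGGAA, the core of sites for ETS factors, were found in 27 (62.8%) against 24.1% of array genes. CTCGCGAG was found in 6 of the 43 (14%), namely Rpl10a, Rpl12, Rpl27a, Rps19, Rps6 and Rps28, against 1.63% of array genes. With a T before and an A after it, the form counted first, it was found in 5 (11.6%) against 0.865%. A run of at least 10 C or T on the transcribed strand, within 30 bases of the start, was found in 17 (39.5%) against 12.9%, and a run of at least 8 in 24 (55.8%) against 25.7%. These are matches of letters, not measured sites. Of the other motifs searched, TATAAA was found in 6 (14%) against 11.5%, CACGTG in 4 (9.3%) against 10.2% and AAGATGGC in 4 (9.3%) against 4.07%. The knockout minus wild-type differences given below had medians that lay on either side. The median with the motif was lower than without it for TGACGTCA (0.027 and 0.075), TGACG (0.063 and 0.084) and runs of at least 8 (0.073 and 0.085) or 10 (0.071 and 0.085). For TGACGTCA that median covers only 2 genes on opposite sides of 0, Rps9 at 0.14 and Rpl27a at -0.081. The direction of Rps9 also rested on the choice of probe set, as given below. The median with the motif was higher for CCGGAA (0.079 and 0.07), CTCGCGAG (0.076 and 0.075), TATAAA (0.091 and 0.071), CACGTG (0.14 and 0.071) and AAGATGGC (0.11 and 0.071). None of these differences was tested.

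In the knockout hypothalamus 45 of the 49 genes read higher than in wild type and 4 read lower, by small amounts. The median difference was 0.071 on the log2 scale, where all 18193 genes had a median of 0.0036 and 51.5% were above 0. Here and below, a level is the deposited log2 value and a difference is knockout minus wild type with its standard error from limma. None of the 49 passed the test (limma, Benjamini-Hochberg over 18193 genes, threshold 0.05), and the lowest adjusted p was 0.211. In all, 2 of the 18193 genes passed, 0.011%. At an unadjusted p under 0.05, 21 of the 49 were higher, where 5.6% of all genes were, and 1 was lower, where 6.12% of all genes were. In 23 genes every knockout array lay above every wild-type array, which held for 6.09% of all genes. In 1 gene, Rps4l, every knockout array lay below, as in 6.05% of all genes. Differences in whole tissue do not tell more RNA in each cell from a different mix of cells, and the p-values measure only the spread between these samples.

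**Figure D1:**
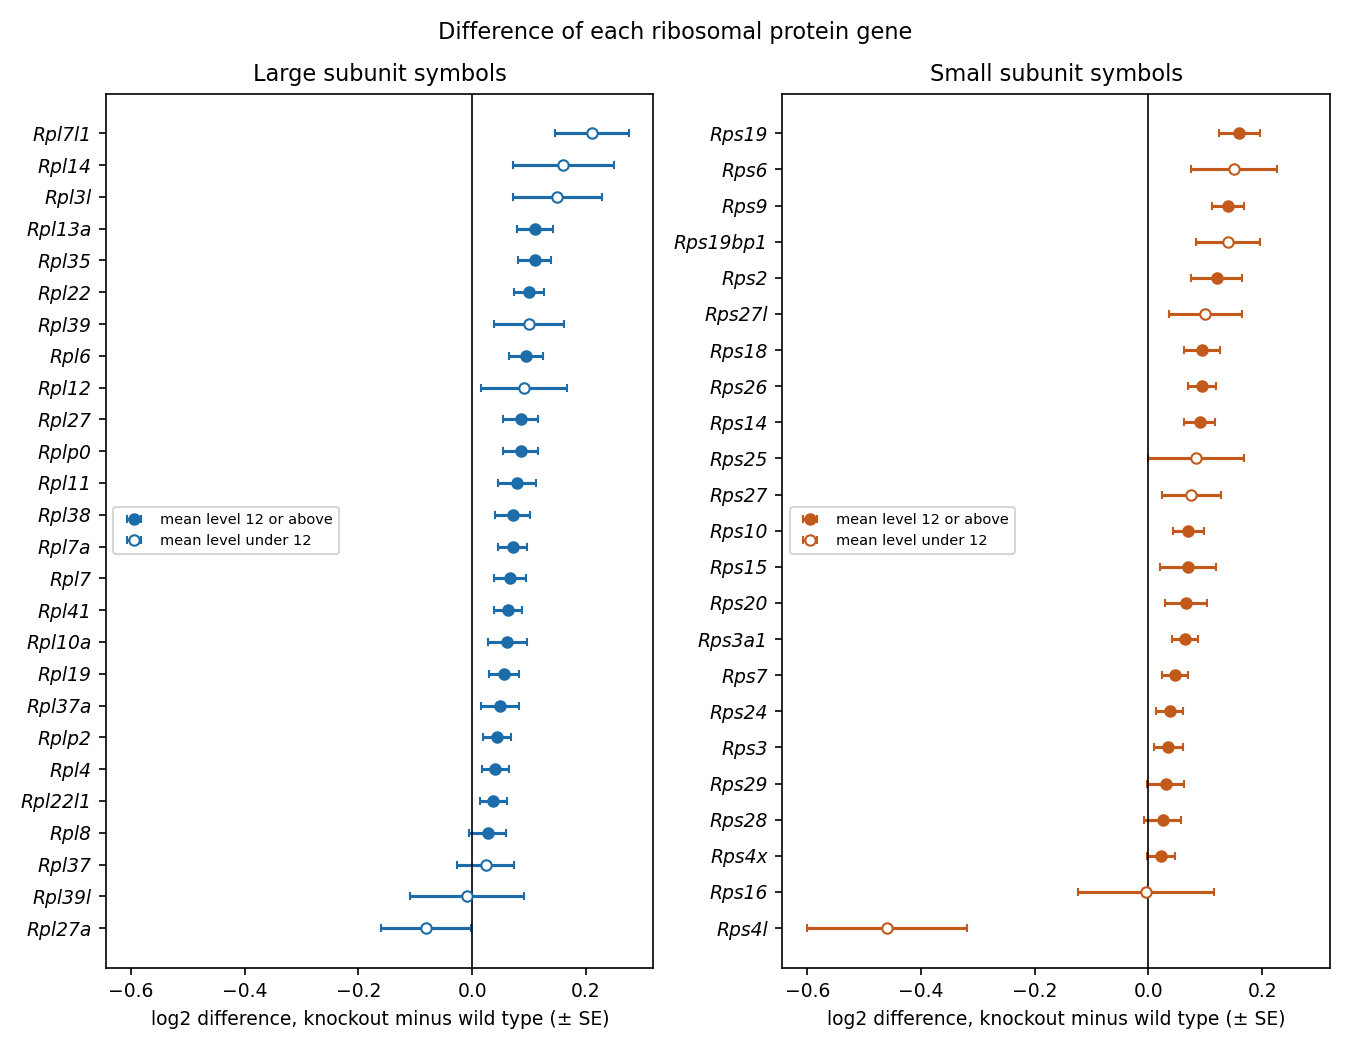
Log2 difference, knockout minus wild type, with limma's standard error for the 26 large subunit (left) and 23 small subunit genes (right), on 1 shared scale. Filled points are genes with a mean level of 12 or above and open points are genes under 12. All but Rpl27a, Rpl39l, Rps16 and Rps4l lie to the right of 0.

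The 2 subunits gave nearly the same numbers. Of the 26 large subunit genes 24 were higher, with a median difference of 0.071, and in 13 the groups did not overlap. Of the 23 small subunit genes 21 were higher, with a median of 0.07, and in 10 no wild-type array reached a knockout array. Without the paralogs and like-named genes, 40 of 42 were higher with a median of 0.07. All 34 genes with a mean level of 12 or above were higher, by 0.022 to 0.16, and in 21 of them the groups did not overlap. Of the other 422 genes of the arrays at that level 181 were higher, with a median of -0.011, and in 23 no wild-type array reached a knockout array, while in 50 every knockout array lay lower. The 15 genes under 12 held all 4 that read lower.

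**Figure D2:**
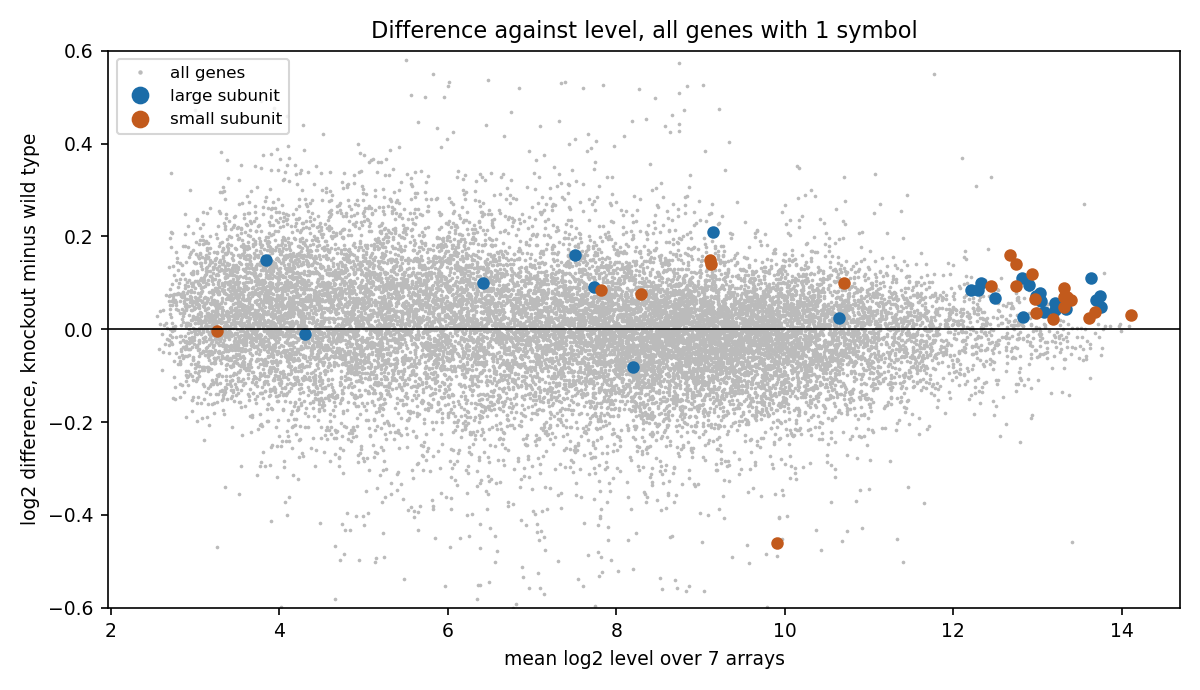
Mean log2 level over the 7 arrays (horizontal) against the log2 difference, knockout minus wild type (vertical), for all genes in grey and the 49 ribosomal protein genes in colour. The vertical axis ends at 0.6 on either side, and 92 genes lie outside it. The ribosomal protein genes at the right edge sit just above 0 in a narrow band.

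Among the large subunit genes, the stalk recruits the elongation factors. Its base Rplp0 read 12.23, 12.23, 12.30 and 12.27 in wild type and 12.32, 12.38 and 12.33 in knockout, a difference of 0.085 ± 0.03 (adjusted p = 0.351, limma). The groups did not overlap. Rplp2, an acidic stalk protein, differed by 0.044 ± 0.025, and the wild-type and knockout values overlapped. Rpl11, which joins the smallest ribosomal RNA to the large subunit and binds Mdm2 when assembly is disturbed, differed by 0.079 ± 0.033 (adjusted p = 0.407, limma) with overlap.

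The proteins listed in or near the peptide tunnel and its exit gave 6 measured genes of 10 listed, all 6 higher, with a median difference of 0.085. In 5 of the 6 the groups did not overlap, as in 23 of all 49 genes and 6.09% of all genes on the arrays. The mean levels of the 6 ran from 6.42 to 13.74. Rpl35, which sits beside the docking place of the signal recognition particle, read 12.82, 12.75, 12.76 and 12.77 in wild type and 12.86, 12.87 and 12.93 in knockout. The difference was 0.11 ± 0.029 (adjusted p = 0.267, limma), and its 6 probe sets all read higher, by 0.049 to 0.12. Rpl22, an RNA-binding protein on the outer face, read 12.30, 12.31, 12.28 and 12.27 in wild type and 12.36, 12.41 and 12.40 in knockout, a difference of 0.10 ± 0.027 (adjusted p = 0.272, limma). Both genes had every knockout array above every wild-type array. The other probe sets of Rpl22 differed by 0.16 and -0.055. Rpl38, whose loss in mice disturbs the body plan through translation of Hox mRNAs, differed by 0.071 ± 0.031 without overlap, and Rpl19 by 0.056 ± 0.026 with overlap.

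Of the other large subunit genes, Rpl13a, which leaves the ribosome in interferon-treated cells to block chosen mRNAs, read 13.62, 13.50, 13.61 and 13.59 in wild type and 13.71, 13.66 and 13.70 in knockout. The difference was 0.11 ± 0.032 (adjusted p = 0.284, limma), the groups did not overlap, and its 4 probe sets differed by 0.079 to 0.11. Rpl6 differed by 0.095 ± 0.03, Rpl27 by 0.085 ± 0.03 and Rpl7a by 0.071 ± 0.026, each without overlap. Rpl37a differed by 0.049 ± 0.033 with overlap. Rpl27a was one of the few that read lower in knockout, on a probe set with a mean level of 8.20, where the median of the 49 genes was 12.83. Rpl27a read 8.18, 8.19, 8.33 and 8.23 in wild type and 8.19, 7.98 and 8.29 in knockout. The difference was -0.081 ± 0.079, and the groups overlapped.

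The head of the small subunit, which swivels as the mRNA moves, gave 10 measured genes of 14 listed, 9 of them higher, with a median of 0.067. In 3 of the 10 the groups did not overlap, where 23 of all 49 genes and 6.09% of all genes on the arrays did so. Rps19, the gene most often mutated in Diamond-Blackfan anaemia, an inherited failure to make red cells, read 12.69, 12.60, 12.57 and 12.55 in wild type and 12.75, 12.76 and 12.78 in knockout. The difference was 0.16 ± 0.036 (adjusted p = 0.232, limma). The knockout arrays lay close together and above all wild-type arrays, of which array 1 was the highest. Rps18 differed by 0.094 ± 0.031, with its 6 probe sets at 0.013 to 0.12. Rps29, with a mean level of 14.11, differed by only 0.03 ± 0.033. Rps16 had a mean level of 3.26, where signal cannot be told from background, and differed by -0.004 ± 0.12.

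The proteins that line the path of the mRNA gave 5 measured genes of 6 listed, all 5 higher, with a median of 0.09. In 3 of the 5 the groups did not overlap, where 6.09% of all genes on the arrays did so. Rps26, which touches the mRNA where it leaves the ribosome, read 12.72, 12.67, 12.69 and 12.72 in wild type and 12.80, 12.78 and 12.80 in knockout, a difference of 0.094 ± 0.025 (adjusted p = 0.272, limma). Rps14, next to it on the platform, read 13.25, 13.30, 13.27 and 13.29 in wild type and 13.36, 13.34 and 13.41 in knockout. It differed by 0.09 ± 0.027 (adjusted p = 0.304, limma). Neither gene overlapped between groups. Rps2, at the mRNA entry, differed by 0.12 ± 0.045, with knockout array 1 at 13.12 and the other knockout arrays at 12.96 and 12.95, and by 0.064 without that array. Rps3a1 differed by 0.064 ± 0.023 without overlap. Rps6, the target of the S6 kinases, read 9.21, 9.06, 8.95 and 8.95 in wild type and 9.22, 9.28 and 9.09 in knockout, a difference of 0.15 ± 0.076 (adjusted p = 0.464, limma) with overlap.

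Rps9, a small subunit protein near the mRNA entry, had the smallest adjusted p of the 49, and its probe sets disagreed. All but the last of its 3 probe sets are of the kinds (s_at and x_at) whose names mark them as able to take up more than 1 transcript. The s_at probe set that stood for it read 12.73, 12.69, 12.69 and 12.65 in wild type and 12.80, 12.85 and 12.83 in knockout, a difference of 0.14 ± 0.028 (adjusted p = 0.211, limma). The x_at probe set read 11.36, 11.35, 11.47 and 11.35 in wild type and 10.79, 10.85 and 11.07 in knockout. It differed by -0.48 ± 0.066 (limma over 45037 probe sets, adjusted p = 0.111). Neither probe set overlapped between groups, and they stood on opposite sides. The last, with a mean level of 5.86, differed by 0.10 ± 0.079. The mean of the 3 gave -0.079 for the gene, so the direction of Rps9 rested on the choice of probe set.

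**Figure D3:**
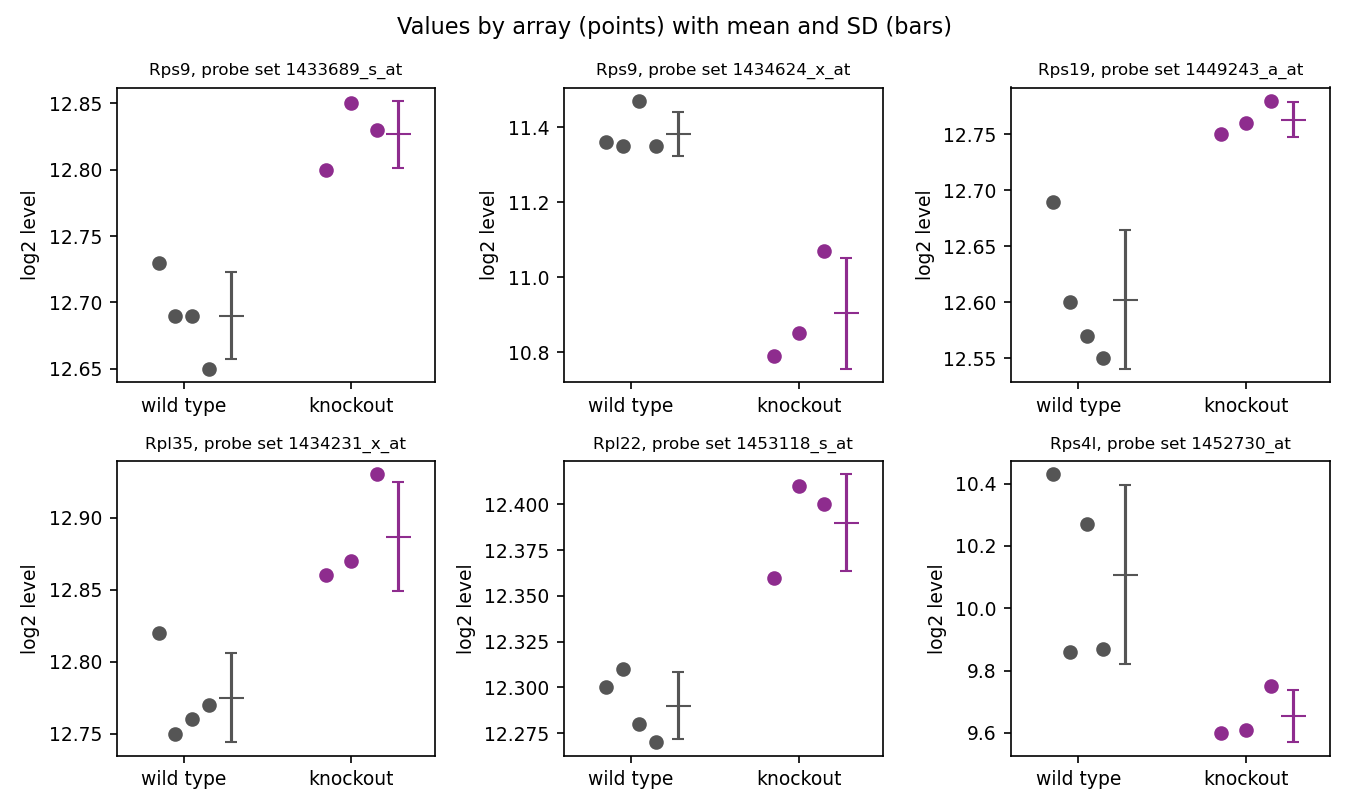
Log2 level on each array for 2 probe sets of Rps9 and for Rps19, Rpl35, Rpl22 and Rps4l, with the 4 wild-type and 3 knockout arrays as points and mean and SD as lines. Rps19, Rpl35, Rpl22 and the first Rps9 probe set sit higher in every knockout array, and the second Rps9 probe set and Rps4l sit lower.

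Of the 7 paralogs and like-named genes 5 were higher, with a median of 0.10. Rps4l, an autosomal relative of Rps4x, read 10.43, 9.86, 10.27 and 9.87 in wild type and 9.60, 9.61 and 9.75 in knockout. The difference of -0.46 ± 0.14 (adjusted p = 0.304, limma) was the largest in size of the 49 genes, and wild-type arrays 1 and 3 were the highest, with all 4 above the knockout arrays. Rpl7l1, a relative of Rpl7, read between 8.99 and 9.14 in wild type and 9.14, 9.31 and 9.35 in knockout, a difference of 0.21 ± 0.065 (adjusted p = 0.313, limma) in which 1 knockout array met the highest wild-type array. The other probe sets of Rpl7l1 differed by 0.094 and 0.056, and the mean of all its probe sets gave 0.12. Rps19bp1 differed by 0.14 ± 0.056 without overlap. Rpl3l, a muscle relative of Rpl3, and Rpl39l, a testis relative of Rpl39, had mean levels of 3.84 and 4.30 and differed by 0.15 ± 0.078 and -0.0096 ± 0.1. Of the genes mutated in Diamond-Blackfan anaemia 11 of 17 listed were measured, all 11 higher, with a median of 0.075. In 6 of them the groups did not overlap, as in 23 of all 49 genes and 6.09% of all genes on the arrays. Rpsa and Fau, ribosomal proteins that the naming pattern misses, differed by 0.11 ± 0.036 and 0.054 ± 0.032.

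Counting every probe set in place of 1 for each gene gave the same direction. The 49 genes had 104 probe sets with a single symbol, of which 96 were higher, where 53.2% of the 45037 probe sets were. The median was 0.073. In 36 no wild-type array reached a knockout array, where 6.02% of all probe sets did, and 37 were higher at an unadjusted p under 0.05, where 5.55% were. None passed, where 3 probe sets of 45037 did (0.00666%). Of the 23 genes with more than 1 probe set, 19 had all of theirs higher. Another 110 probe sets carry a ribosomal protein symbol beside others, mostly pseudogenes and predicted genes, and are counted here without naming a gene. Of these 99 were higher, with a median of 0.058. None passed (limma, lowest adjusted p = 0.169), 34 were higher and 0 lower at an unadjusted p under 0.05, and in 32 no wild-type array reached a knockout array. Ribosomal protein genes have many near-identical copies in the genome, and 15 of the 49 genes were read through probe sets marked as open to such copies.

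Array by array, the number of the 49 genes that lay above their own mean was 29, 5, 7 and 2 in wild type and 42, 37 and 42 in knockout. Wild-type array 1 therefore lay between the other wild-type arrays and the knockout arrays. The median deviation from the gene mean of the large subunit genes was -0.0065, -0.034, -0.022 and -0.052 in wild type and 0.024, 0.029 and 0.054 in knockout, with no overlap and an SD between arrays of a group of 0.018. The small subunit genes gave 0.02, -0.041, -0.047 and -0.044 in wild type and 0.047, 0.019 and 0.051 in knockout, with an SD of 0.027. Here wild-type array 1 reached knockout array 2. Of the 34 genes at a level of 12 or above, at least 24 were higher in every pairing of a knockout with a wild-type array, and 24 to 29 against wild-type array 1. Against the other wild-type arrays 32 to 34 were higher.

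**Figure D4:**
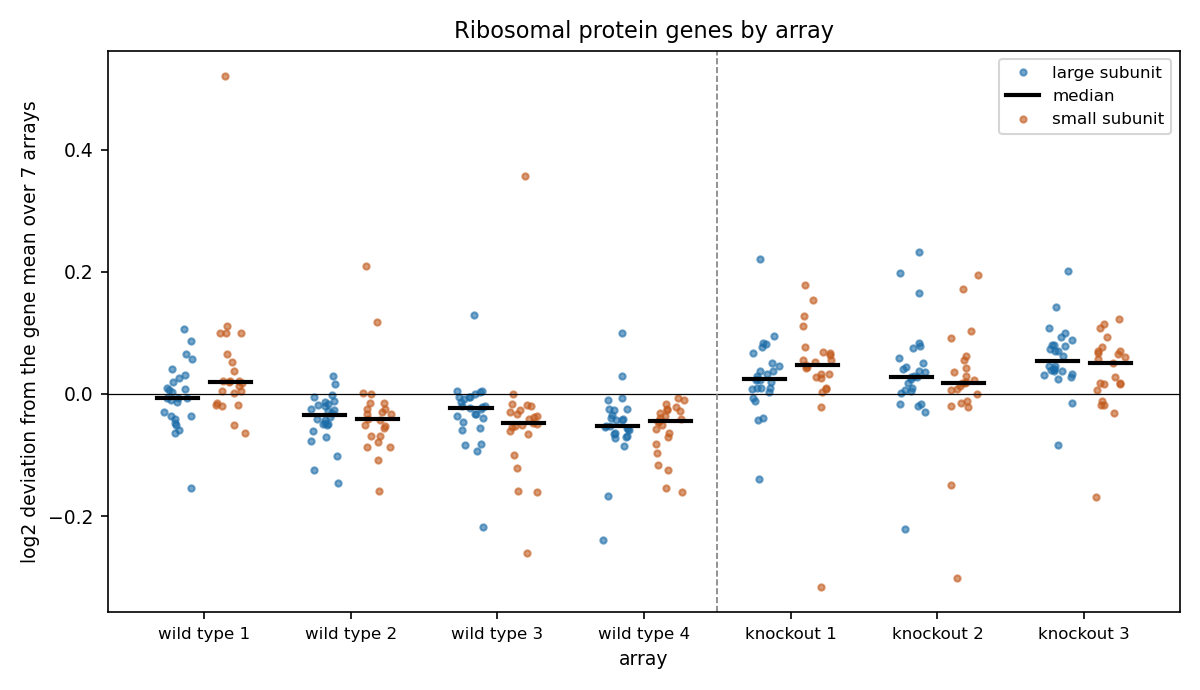
Deviation of each of the 49 genes from its own mean over the 7 arrays, on the log2 scale, for each array, with the median as a line. Both medians sit above 0 in the 3 knockout arrays and below it in wild-type arrays 2, 3 and 4, while in wild-type array 1 only the small subunit median is above 0.

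The genes at a level of 12 or above also varied together within the groups. With group means removed, the mean correlation over 561 pairs was 0.25 across the 7 arrays, and 71.1% of pairs were positive. Pairs of other genes at that level had a mean of 0.0023. Without wild-type array 1 the value for the ribosomal protein genes was 0.056 with 52.2% positive, so it rested largely on that array. These correlations share arrays and their normalization, and are a description.

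Other values moved with the groups, and their part in the differences above was not tested. The 45 probe sets of RNAs added from outside the sample read higher in knockout by 0.10 (wild type -0.041 ± 0.034, n = 4, knockout 0.055 ± 0.047, n = 3, SD, as deviations from their mean), and the 18 of these added at hybridization by 0.08. The upper quartile of an array was 8.34 to 8.36 in wild type and 8.32 to 8.33 in knockout. Probe sets for ribosomal RNA of the small subunit differed by 0.036, with arrays from -0.26 to 0.43 within wild type. The difference between 3′ and 5′ probe sets of Gapdh was 0.025 in wild type and 0.046 in knockout, and of Actb 1.39 and 1.41. Of 12 neuron markers 9 were lower in knockout, with a summed level of 15.92 to 15.98 in wild type and 15.86 to 15.90 in knockout. Of 10 microglia markers 6 were lower (12.24 to 12.38 and 12.14 to 12.27), of 12 vessel markers 8 (12.31 to 12.40 and 12.17 to 12.32) and of 12 meninges markers 10 (10.98 to 12.75 and 10.81 to 11.42). Of 8 thalamus markers 8 were lower (12.63 to 13.55 and 12.50 to 12.94), while 7 of 9 hypothalamus markers were higher (14.80 to 15.21 and 14.99 to 15.19). Of 8 astrocyte markers 6 were higher (15.07 to 15.18 and 15.10 to 15.15), and of 7 oligodendrocyte markers 3 (15.22 to 15.56 and 15.17 to 15.44). All 6 blood markers measured were higher (7.38 to 7.70 and 7.59 to 9.57), at low mean levels of 4.42 to 5.99. Knockout array 2 stood apart in them, at a median deviation of 0.91. Knockout arrays 1 and 3 stood at -0.17 and -0.11, and the wild-type arrays between -0.38 and -0.094, so the groups overlapped. Wild-type array 2 stood apart in the thalamus markers and wild-type array 3 in the meninges markers. Without both, 23 of 26 large and 20 of 23 small subunit genes were higher, with medians of 0.072 and 0.062.

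Genes that work around the cytosolic ribosome gave mixed counts, with 0 past the test in every list. Of 76 genes for proteins of the mitochondrial ribosome 66 were higher, with a median of 0.064, and in 15 no wild-type array reached a knockout array, where 6.09% of all genes did so. By the mean of all probe sets of a gene, 58 were higher and the median was 0.032. Mrps35 differed by 0.29 ± 0.073 (adjusted p = 0.267, limma), Mrpl47 by 0.23 ± 0.064 and Mrpl9 by -0.27 ± 0.075. Of 66 genes that build ribosomes in the nucleolus 48 were higher, with a median of 0.034. In 7 every knockout array lay above every wild-type array and in 2 below, where 6.09% and 6.05% of all genes did so. Of the 66, Noc3l differed by 0.37 ± 0.091, Wdr12 by 0.15 ± 0.038 and Emg1 by 0.12 ± 0.035. Of 36 translation factors measured of 42 listed 25 were higher, with a median of 0.016. In 4 every knockout array lay above every wild-type array and in 2 below, against the same 6.09% and 6.05%. Eif3d, a subunit of the factor that loads the small subunit onto mRNA, differed by 0.16 ± 0.037 (adjusted p = 0.261, limma), Eif3i by 0.10 ± 0.029 and Eif4g3 by -0.17 ± 0.041.

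The genes of the mTOR pathway, with the S6 kinases and other regulators of ribosomal protein mRNA, had a median below 0. Of 27 measured of 33 listed, 18 read lower and 9 higher (33.3%) in knockout, and the median was -0.037. Part of that tilt was shared by genes of similar level. The list had a median level of 9.03, and of all genes at levels of 8.98 to 9.67, 41.7% were higher, with a median of -0.015. In 5 of the 27 every knockout array lay below every wild-type array and in 2 above, where 6.05% and 6.09% of all genes did so. Tsc2, which holds mTOR in check, read 8.79, 8.81, 8.78 and 8.79 in wild type and 8.61, 8.58 and 8.57 in knockout, a difference of -0.21 ± 0.042 (adjusted p = 0.207, limma). Larp1, which binds the pyrimidine run of ribosomal protein mRNAs, differed by -0.15 ± 0.035 (adjusted p = 0.243, limma). In both every knockout array lay below every wild-type array. Max, the partner of Myc, differed by 0.21 ± 0.059 without overlap. The median of this list was -0.005 by the mean of all probe sets, -0.013 after each array was centred on its 75th percentile and 0.0076 on the 3 female arrays, so its sign was not the same under every setting. The medians of both ribosomal subunits, the mitochondrial ribosome, the nucleolar genes and the translation factors stayed above 0 under all 20 settings run, but their size moved. The mitochondrial ribosome ran from 0.032 to 0.088, the nucleolar genes from 0.02 to 0.058 and the translation factors from 0.013 to 0.04, each highest after centring on the 75th percentile.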

How the data were processed

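The authors deposited 1 log2 expression value for each probe set and array, 7 Affymetrix arrays in all. The submitters' processing notes name RMA, affy and R 2.10.0, with no settings. RMA equalises the distributions of all arrays and gives no detection call, so low values may be background. The number of arrays limits the precision. Of 45101 probe sets, 64 controls were left out and 34945 of the other 45037 carried 1 symbol, 932 several and 9160 none in the platform annotation. RefSeq (GRCm38.p6) matched 34741 and changed 0 symbols. The genotypes were compared with limma 3.58.1 under R 4.3.3 (lmFit, eBayes with an intensity trend, two-sided), adjusted by Benjamini-Hochberg over 18193 genes, threshold 0.05. The fit was also run on simulated data, with genes drawn independently and effects larger than any difference of the 49 genes. That run does not bear on small differences or on genes that vary together.

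The genes, lists and tests were chosen with earlier results of these data known. Named genes are the 8 of each subunit with the smallest unadjusted p, all with a difference below 0, examples from the role lists, Rps6, those with the highest and lowest levels, and those with disagreeing probe sets. In each other list up to 3 are named. For TGACGTCA and CTCGCGAG all genes that hold the motif are named. For pyrimidine runs of at least 10 the 2 of each subunit with the smallest unadjusted p are shown, leaving out genes already shown, and Rps10 was named there after its values were seen. The motifs, the level of 12 and the values for rRNA and added control RNAs were chosen after values were seen, and the core CTCGCGAG replaced a longer form counted first.

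Arrays of the same number in both genotypes deviated together (r = 0.318, 0.101 and 0.143 for numbers 1, 2 and 3, each over 0.1). Of the other pairs, knockout 3 also reached 0.126 with wild type 2 and 0.103 with wild type 4, so the pairing is not clear cut. The main fit left the number out, as the labels state no shared litter or day. A block on the number was run only as an alternative, over arrays 1 to 3. Arrays of the same number also shared the sex placed by Xist and Y-linked transcripts, female for number 1 and male for numbers 2 and 3. The block therefore takes up sex as well, and the correlations cannot tell a shared number from a shared sex. Alternatives covered probe set choice, a filter on dim probe sets, normalization, array weights, the variance model, sex, the replicate block and each array left out. Figures were drawn with matplotlib 3.10.9.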

Additional observations from a re-analysis of the deposited data

Results flagged for a closer look

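Wild-type array 1 lay far from the other 3 wild-type arrays in the median deviation of the small subunit genes from their own means. It stood at 0.02 on the log2 scale, and the others between -0.047 and -0.041, a gap of 0.91 of the whole range, which is beyond Dixon's critical value for 4 samples. Chance gives such a gap in about 1 in 20 groups. Without this array the number of the 49 genes with no overlap, higher in knockout, was 34 in place of 23, with 11.2% of all genes doing so.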

How the results depend on the processing

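No ribosomal protein gene passed the threshold of 0.05 under any of the 20 settings. At 0.1 none passed with all arrays, and Rps19 did without wild-type array 1 (adjusted p = 0.0856, limma), the only such case. Lowest adjusted p-values under the other settings ran from 0.166 to 0.957. The share of all genes under the same setting is given after each count. The count higher at an unadjusted p under 0.05 was 21 (5.6%). It was 8 by eBayes without a trend (5.72%), 12 without wild-type arrays 2 and 3 (2.63%) and 3 on the female arrays (1.84%), which hold 1 knockout array, assumed to vary like the others. It was 11 to 23 with 1 array left out (4.03% to 6.9%), lowest without wild-type array 4 (4.26%) and highest without wild-type array 1 (6.9%). With the replicate number as a block over arrays 1 to 3 it was 16 (5.19%), and 11 on the same arrays with no block (4.26%). The block gave medians of 0.067 and 0.058 for the large and small subunit and changed no call. The count without overlap was 23 (6.09%). It was 15 without x_at and s_at probe sets (6.05%, 44 genes left), 14 after centring on the array median (5.85%) and 23 to 34 with 1 array left out (7.78% to 11.4%). Centring on the 75th percentile gave a large subunit median of 0.095, and moved the median of all genes to 0.028 and the share above 0 to 61.2%. With 1 array left out, 23 to 25 large and 20 to 22 small subunit genes were higher, with medians of 0.062 to 0.08 and 0.058 to 0.085. The settings without wild-type arrays 2 and 3, the female arrays and the probe sets with several symbols were chosen after seeing the data.

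The values of 28 named genes were compared across settings, together with the median of the 110 probe sets with several symbols. In all, 538 kept their direction and side of the threshold, and 16, all of named genes, reversed. Rps9 was -0.079 by the mean of its probe sets. Rpl27a ran from -0.15 to 0.0063 with 1 array left out, Rpl39l from -0.084 to 0.057 and Rps16 from -0.092 to 0.069. Rpl39l was 0.014 after 75th percentile centring and 0.022 over arrays 1 to 3 with and without the replicate block. Rps16 was 0.0019 with array weights, 0.02 after 75th percentile centring, 0.017 with sex as a covariate and 0.12 on the female arrays. The cause was not tested.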
